A study of Rattus norvegicus with 2 samples.

Results

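The 109 genes described here had a higher level in failing left ventricular (LV) tissue of Dahl salt-sensitive (DS) rats than in control LV tissue. Their level was lower than in the failing tissue in rats that received chaetocin while on the same high-salt diet. They were selected on 3 measured values: an HS (−)/NS (−) ratio over 2, an HS (ch+)/HS (−) ratio under 0.714, and a signal of at least 100 for HS (−) on both arrays. Of 20174 genes with a spot on the array, 12290 had both ratios, and 4127 of these also reached the signal minimum and are called the genes tested. The limits were met by 113 genes, and the rule left out 12 IDs, of which 4 were among the 113. The 109 genes were thus 2.64% of the genes tested and 0.540% of the genes on the array. As both ratios chose the genes, the ratios below are given as a description, without a test.

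DS rats are a rat model in which dietary salt raises blood pressure, and their hearts fail with time under that load. All rats were male DS rats, and RNA was taken from the LV at the stage of heart failure. The control group, NS (−), was fed 0.3% NaCl, and the HF group, HS (−), was fed 8% NaCl. The treatment group, HS (ch+), was fed 8% NaCl and received chaetocin at 0.25 mg/kg, given 2 times a week from the age of 6 to that of 13 weeks. No group of the arrays received chaetocin on the normal-salt diet. The RNA of 3 rats was mixed for each group, so that each group was 1 pool and the spread between rats cannot be seen. Array 1 set HS (−), in the red dye Cy5, against NS (−), in the green dye Cy3, and array 2 set HS (−) in Cy5 against HS (ch+) in Cy3. With 1 array for each comparison and no dye swap, no p-value was calculated, and the precision of all values is limited by the number of arrays.

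Hearts under pressure load are known to return to a program of gene expression that is otherwise seen before birth, with natriuretic peptides, the beta form of myosin heavy chain and proteins of the extracellular matrix among its products. Chaetocin is a fungal compound that may not be highly specific, by a report that the paper cites. It inhibits SU(VAR)3-9, an enzyme that adds methyl groups to lysine 9 of histone H3, a mark of closed chromatin. Genes near such chromatin are usually silent, so an inhibitor of the enzyme is in the first place known for raising the expression of genes. The arrays list genes by Ensembl ID, and 0 of the 109 IDs had a name in the RefSeq gene table of the rat assembly GRCr8. Whether the natriuretic peptides, matrix genes or markers of other cell types are among the 109 genes was therefore not analysed here. The 12 IDs that the rule left out had no name there either, so such genes may be among those left out. The bulk LV tissue holds several cell types, and a larger number of cells of one type cannot be told apart from more RNA per cell. Of the cell type markers looked for, Myh6 alone had a known ID; it encodes the alpha myosin heavy chain of adult rat heart muscle. Myh6 had a signal of 65487 in NS (−), at a saturated spot, and of 11788 in HS (−) on array 1, and of 15969 in HS (−) and 32990 in HS (ch+) on array 2.

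The HS (−)/NS (−) ratio of the 109 genes was between 2.02 and 95.8, with a median of 3.73, beside a median of 0.978 over all genes tested. Across the genes tested, 172 genes, or 4.17%, had a ratio over 2. The lower and upper quartiles of the 109 ratios were 2.69 and 9.12, so that the genes spread over a wide range above the limit. A ratio from 2 to 3 was found in 42 genes, from 3 to 4 in 18, from 4 to 8 in 16, from 8 to 16 in 19, and over 16 in 14. A majority of the genes thus lay below 4-fold, with a long tail of much larger ratios.

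With chaetocin, the HS (ch+)/HS (−) ratio of the same genes was between 0.134 and 0.714, with a median of 0.548 and quartiles of 0.376 and 0.629. The median over all genes tested was 1.02, and 189 of them, or 4.58%, had a ratio under 0.714. Both limits together were met by 2.74% of the genes tested. Both ratios hold the same HS (−) pool in Cy5, so the limits are not independent of each other. A high reading of that pool moves a gene towards both limits, and the 2.74% is not read as a response to chaetocin. Among the 109 genes, 63 had a ratio between 0.5 and 0.714, 38 a ratio between 0.25 and 0.5, and 8 a ratio under 0.25. The level in HS (ch+) was thus under 0.25 times that in HS (−) in 8 genes, while most genes lay closer to the limit.

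**Figure D1:**
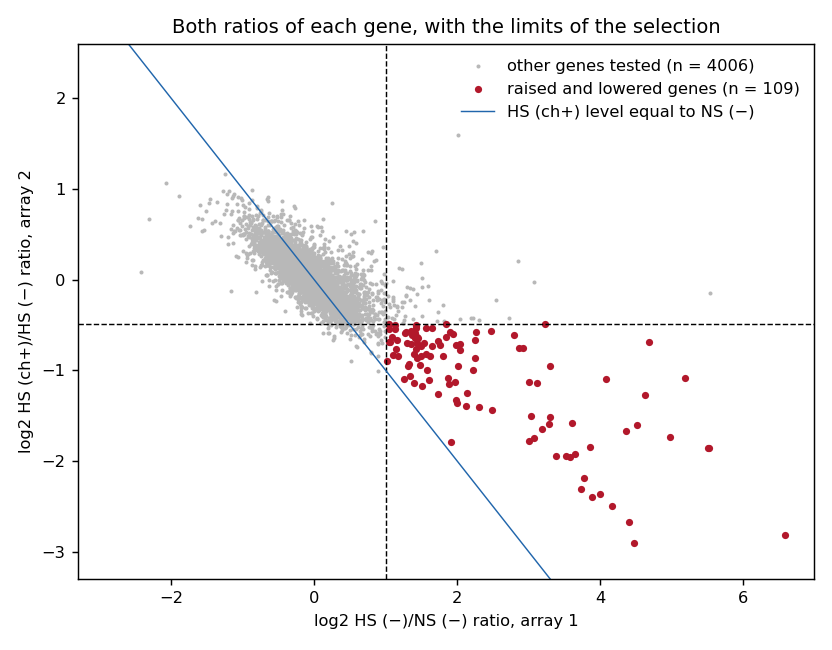
Log2 HS (−)/NS (−) ratio on array 1 (horizontal axis) and log2 HS (ch+)/HS (−) ratio on array 2 (vertical axis) of 4115 genes, with the 12 left-out IDs not drawn; the dashed lines are the limits of the selection, and on the blue line HS (ch+) equals NS (−). All 109 red points lie to the right of the blue line, so that the HS (ch+) level of each stayed above that of NS (−), with a HS (ch+)/NS (−) ratio between 1.09 and 17.1. The limits fix this side for the 63 genes with an HS (ch+)/HS (−) ratio of at least 0.5.

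The product of both ratios gives HS (ch+)/NS (−), the level that was left with chaetocin in relation to control hearts. It compares a pair of pools that were both labelled with Cy3, whereas HS (−) was in Cy5 on both arrays, where a preference of a probe for one dye and the difference between groups cannot be told apart. The HS (ch+)/NS (−) ratio was above 1 in all 109 genes, with a lowest value of 1.09, quartiles of 1.56 and 3.07, a median of 1.95 and a highest value of 17.1. Among all genes tested, the median was 0.990 and 47.5% of the ratios were above 1. A gene over the first limit with an HS (ch+)/HS (−) ratio of at least 0.5 is above 1 by construction, which covers 63 of the 109. The limits left the side open in the other 46 only. The values over all genes tested are therefore given as background, and no conclusion is drawn from the contrast. In 54 of the 109 genes the level in HS (ch+) was still more than 2 times that in NS (−), in 32 it was 1.5 to 2 times as high, and in 23 it was up to 1.5 times as high. A ratio over 5 was left in 12 genes. The plot of both ratios places every one of the 109 genes on the side of the blue line where HS (ch+) exceeded NS (−).

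On the log2 scale, the share of the HS (−)/NS (−) difference that was absent with chaetocin was between 14.8% and 93.5%, with a median of 48.6% and quartiles of 37.5% and 59.9%. It was over 50% in 51 genes, over 75% in 7 genes and under 25% in 5 genes. The share holds HS (−) in both of its terms and depends on both limits of the selection, so it describes the genes and does not rank them by response.

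The 60 genes with an HS (−)/NS (−) ratio up to 4 had a median HS (ch+)/HS (−) ratio of 0.609 and were left at a median of 1.60 times the NS (−) level. For the 16 genes between 4 and 8, the medians were 0.566 and 2.46. For the 33 genes over 8, they were 0.298 and 3.44, and the HS (ch+)/NS (−) ratio was between 2.34 and 17.1. The share that was absent with chaetocin had medians of 52.2%, 38.3% and 47.7% in these 3 ranges. The ranges are cut on a ratio that chose the genes and that is also a factor of HS (ch+)/NS (−), so no relation between the ratios is read from them.

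**Figure D2:**
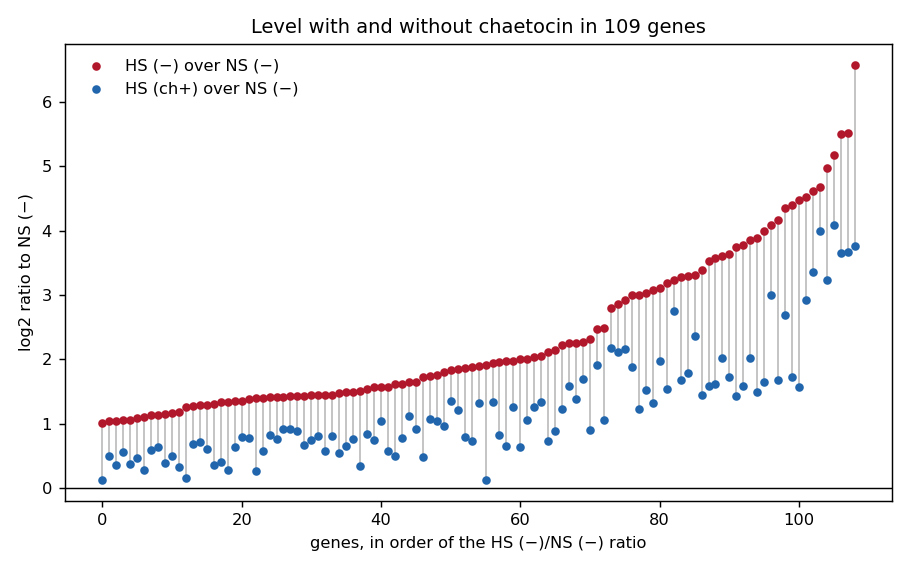
Log2 ratio to NS (−) for HS (−) in red and HS (ch+) in blue, with a grey line joining both values of each of the 109 genes, ordered from the lowest HS (−)/NS (−) ratio to the highest (horizontal axis). Every blue point lies below its red point, which the selection fixes. Each also lies above 0, the NS (−) level, which the limits fix for 63 of the genes. Among the 33 genes over 8-fold the lowest blue point stands for a ratio of 2.34.

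The plot of levels with and without chaetocin shows these ranges gene by gene, and the genes whose level came closest to that of NS (−) stand at its left and centre. The closest were 3 genes with HS (ch+)/NS (−) ratios of 1.09, 1.09 and 1.12. Each was nearer to 1 than 1 SD of the log2 difference between the HS (−) readings described below. That SD does not cover Cy3, in which HS (ch+) and NS (−) were read. The first of these genes had a signal of 3028 in NS (−) and 5442 in HS (−) on array 1, and of 5850 in HS (−) and 4091 in HS (ch+) on array 2. The second had signals of 92.1 and 309 on array 1 and of 326 and 122 on array 2, which gave ratios of 3.78 and 0.289 and the share of 93.5%, the highest of all. The third had signals of 4316 and 9146 on array 1 and of 11648 and 7080 on array 2. Signals are brightness values of the spots after subtraction of the blank mean and before the arrays were centred, so that each ratio also holds the centring of its array.

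At the other end, the gene with the highest HS (ch+)/NS (−) ratio, 17.1, had signals of 21.5 in NS (−) and 695 in HS (−) on array 1, and of 688 in HS (−) and 420 in HS (ch+) on array 2. Its HS (−)/NS (−) ratio was 36.3 and its HS (ch+)/HS (−) ratio was 0.471. The gene with the next highest value, 15.9, had signals of 20.1 and 459 on array 1 and of 482 and 388 on array 2, and its share of 14.8% was the lowest of the 109. In both genes the level in HS (ch+) lay far nearer to that in HS (−) than to that in NS (−) on the log2 scale. Both had a dim NS (−) spot, which limits how exactly their ratios to NS (−) are known. Moving the NS (−) signal by 1 SD of the blank spots, 1.99, gave an HS (−)/NS (−) ratio of 33.2 or 40.0 in the first gene. In the second it gave 23.4 or 28.5.

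The 172 genes with an HS (−)/NS (−) ratio over 2 held 59 genes that did not pass the second limit, of which 51 had an HS (ch+)/HS (−) ratio under 1. Without the 12 left-out IDs there were 56 such genes, whose median ratios were 2.45 for HS (−)/NS (−) and 0.829 for HS (ch+)/HS (−). They were left at a median of 2.17 times the NS (−) level, beside 1.95 times for the 109 genes. The selection on the second ratio parts these groups by construction, and no test was made between them.

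The highest HS (−)/NS (−) ratio was that of ENSRNOG00000019183. Its signal was 15.9 in NS (−) and 1358 in HS (−) on array 1, and 1657 in HS (−) and 306 in HS (ch+) on array 2. Both HS (−) readings were thus far above the other pools, and the HS (ch+) reading lay between those of HS (−) and NS (−). The ratios were 95.8 for HS (−)/NS (−), 0.142 for HS (ch+)/HS (−) and 13.6 for HS (ch+)/NS (−), so that 42.7% of the log2 difference was absent with chaetocin. The size of the first ratio rests on the dim NS (−) spot: with its signal moved by 1 SD of the blank spots, 1.99, in either direction, the ratio was 85.2 or 109. Normexp correction of the background with an offset of 50 and loess gave 10.1, and 50 added to each signal gave 22.2. A constant added to both channels draws the ratio of a dim spot towards 1 by construction.

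ENSRNOG00000017130 came next. Its signal was 5.58 in NS (−) and 228 in HS (−) on array 1, and 228 in HS (−) and 81.8 in HS (ch+) on array 2. The HS (−) readings were alike on both arrays, and the NS (−) spot was close to the blanks. Its ratios were 46.0 for HS (−)/NS (−), 0.277 for HS (ch+)/HS (−) and 12.7 for HS (ch+)/NS (−). Moving the NS (−) signal by 1 SD of the blank spots gave a first ratio of 33.9 or 71.5, and normexp with loess gave 2.43 and an HS (ch+)/HS (−) ratio of 0.688. With 50 added to each signal, these ratios were 5.2 and 0.432.

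These genes belonged to 9 genes whose NS (−) signal, between 4.29 and 15.9, was under 10 SD of the blank spots, or 19.9. Their HS (−) signal on array 1 was between 102 and 1358 and their HS (ch+) signal between 55.7 and 306, so the spots were well lit in both high-salt pools. The HS (−)/NS (−) ratio of the 9 genes was between 7.27 and 95.8 with a median of 24.6, and their HS (ch+)/NS (−) ratio was between 3.22 and 13.6 with a median of 9.45. Of the 14 genes over 16-fold, 7 were of this kind. The exact size of such ratios is therefore less certain than that of genes with a bright NS (−) spot, which the plot of ratios and brightness shows.

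**Figure D3:**
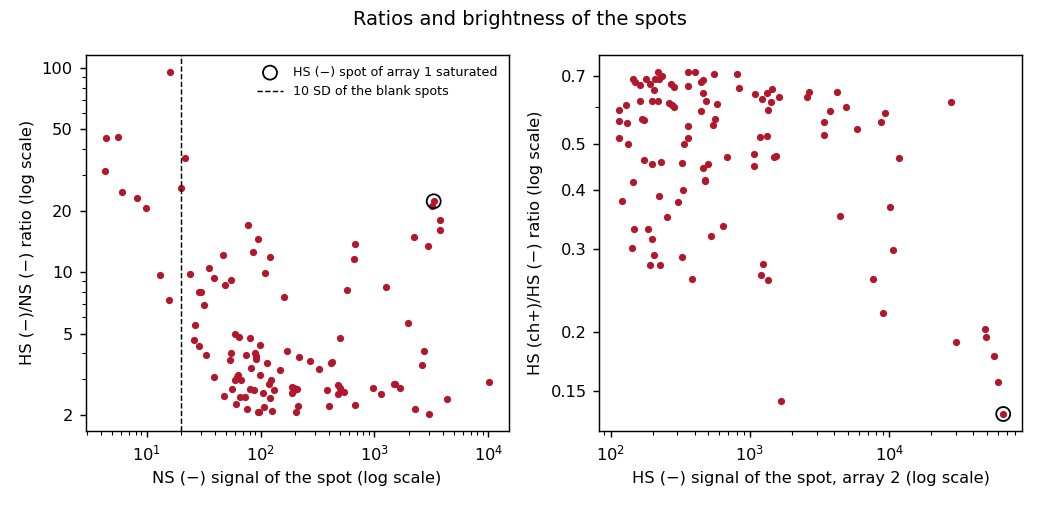
Left, HS (−)/NS (−) ratio of the 109 genes against the NS (−) signal of their spots, with a dashed line at 10 SD of the blank spots (19.9). Right, HS (ch+)/HS (−) ratio against the HS (−) signal on array 2. All axes are log scales in arbitrary brightness units or ratios, and a ring marks the gene with a saturated spot; 9 genes lie left of the dashed line, and at the far right of the second panel 6 of the 7 genes with HS (−) signals over 25000 have ratios between 0.134 and 0.202.

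The lowest HS (ch+)/HS (−) ratio was that of ENSRNOG00000029719. Its signal was 3313 in NS (−) and 65510 in HS (−) on array 1, and 65400 in HS (−) and 11356 in HS (ch+) on array 2. The NS (−) and HS (ch+) readings were both far below those of HS (−), with the HS (ch+) reading the higher one. The HS (−) spot of array 1 was saturated at the scanner's ceiling of 65535, and the intensity on array 2, 65426, lay just under it. Its HS (−)/NS (−) ratio of 22.2 therefore rests on a saturated spot and is a lower bound for array 1 with the centring used. With the HS (−) reading of array 2 in its place the ratio was 20.1. The HS (ch+)/HS (−) ratio was 0.134. Both of these values rest on a reading just under the ceiling, and whether it was too low as well was not tested. The HS (ch+)/NS (−) ratio of 2.97 is the product of both and rests on the same saturated spot.

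ENSRNOG00000031230 had a signal of 3203 in NS (−) and 60334 in HS (−) on array 1, and of 60247 in HS (−) and 12222 in HS (ch+) on array 2. Both HS (−) readings were again the highest, without a saturated spot. Whether readings this bright were too low was not tested. The ratios were 21.2 for HS (−)/NS (−), 0.156 for HS (ch+)/HS (−) and 3.31 for HS (ch+)/NS (−), and 60.8% of the log2 difference was absent with chaetocin. The HS (ch+)/HS (−) ratio was lower than in ENSRNOG00000031230 in just 2 of the 109 genes, ENSRNOG00000029719 and ENSRNOG00000019183.

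The last pair of IDs belonged to 7 genes with HS (−) signals over 25000 on both arrays, a limit chosen after the values had been seen; 26 of the genes tested were this bright. In 6 of the 7 genes, the ratios were 13.4 to 22.2 for HS (−)/NS (−), 0.134 to 0.202 for HS (ch+)/HS (−) and 2.70 to 3.31 for HS (ch+)/NS (−), and the value of 22.2 is that of the saturated spot. Probe sequences were not used here, so whether the 6 spots read 6 separate RNAs was not tested. Their signals were between 2247 and 3753 in NS (−) and between 29550 and 65510 in HS (−) on array 1, and between 30020 and 65400 in HS (−) and between 7415 and 12932 in HS (ch+) on array 2. The share that was absent with chaetocin was between 59.0% and 64.9%, the latter again at the saturated spot. The seventh gene had signals of 10209 and 26404 on array 1 and of 27417 and 21936 on array 2, with ratios of 2.91, 0.616 and 1.79. Of the 33 genes over 8-fold, 13 had an HS (ch+)/NS (−) ratio within the range of the 6 bright genes, these 6 included, 2 had a lower one and 18 a higher one, and 7 of these 18 had an NS (−) signal under 10 SD of the blank spots.

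In 55 of the 109 genes the signal was at least 100 in all 4 channels, and their median ratios were 2.85 for HS (−)/NS (−), 0.584 for HS (ch+)/HS (−) and 1.74 for HS (ch+)/NS (−). The HS (ch+)/NS (−) ratio of these 55 genes was between 1.09 and 5.11. A minimum in the NS (−) channel removes genes with a low NS (−) signal, and with them large ratios, by construction.

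Over the 109 genes, the signal was lowest at 4.29, 105 at the median and highest at 10209 in NS (−), and 102, 384 and 65510 in HS (−) on array 1. On array 2 it was 114, 457 and 65400 in HS (−), and 55.7, 306 and 21936 in HS (ch+). Signals of different probes are not comparable as levels of RNA, and these ranges describe how bright the spots behind the ratios were.

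HS (−) RNA was read on both arrays, and the difference between both readings shows how well the Cy5 signal of a spot was measured. It does not cover rats, nor Cy3, in which NS (−) and HS (ch+) were read, and whether it covers the labelling is not known. The SD of the log2 difference between these readings was 0.16, or 1.12-fold, over the genes tested and 0.14 over the 109 genes. The median log2 ratio of the signal on array 1 to that on array 2, before centring, was −0.13 in the 109 genes and −0.15 over all genes tested, with a range from −0.62 to 0.17 in the 109. When the HS (−) readings were exchanged between the arrays, 106 of the 109 genes still had a ratio over 2, 104 still had a ratio under 0.714, and 101 met both limits. Further than 1 SD inside both limits lay 78 genes, where this SD leaves out the error of the Cy3 channel. Within 1 SD of the first limit lay 10 genes and of the second 26, with 5 genes near both.

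Just inside the first limit, the HS (−)/NS (−) ratios were 2.02 and 2.06, and just outside, 1.99 and 1.98. At the second limit, the HS (ch+)/HS (−) ratios were 0.7137 and 0.7127 inside and 0.7144 and 0.7154 outside. At the signal minimum, the lower of both HS (−) signals was 102 and 106 inside and 98.2 and 95.4 outside. The values on either side of the second limit differed by far less than the spread of the HS (−) readings.

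The 109 genes had their spots in 38 of the 48 blocks of the array. Block 23 held 8 of them among 106 genes tested, and block 43 held 7 among 82. Over the genes tested, the median log2 ratios were 0.12 for HS (−)/NS (−) and −0.05 for HS (ch+)/HS (−) in block 23, and 0.04 and −0.12 in block 43. Block medians over the array were between −0.19 and 0.12 and between −0.12 and 0.18, so block 23 had the highest first median and block 43 the lowest second one. The gene with the share of 93.5% and the gene with the HS (ch+)/NS (−) ratio of 17.1 both came from block 23, and ENSRNOG00000019183 from block 43. With loess fitted within each block, 125 genes met the limits, 108 of the 109 among them. The 109 genes were chosen without that fit, and it removes only a trend that the spots of a block share. Whether their number in blocks 23 and 43 has another cause was not tested.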

How the data were processed

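The members and lists were chosen with earlier results of these data known. Per array, the authors deposited the intensity of the spots in Cy5 (read at 635 nm) and in Cy3 (read at 532 nm), not normalized, and for the series a table with 1 normalized log2 value per gene and array. Groups and dyes came from the labels and the paper. Arrays were of a rat oligonucleotide chip with 1 spot per gene. How the log2 values were made is not given in the sources used here. The ratios used in the report were recalculated from these intensities: per channel, the 4553 blank spots were averaged without their highest and lowest 5% and the average was subtracted, spots that did not exceed it by 2 SD in both channels were left out, and log2 ratios were centred on the median over genes and 521 quality control spots (−0.17 and −0.38, Cy5 over Cy3). The deposited log2 values, which are Cy3 over Cy5, were matched within 2.7e-05. Signals are blank-subtracted intensities before centring, and the blank means were 24.8 (Cy5) and 48.1 (Cy3) on array 1 and 25.5 and 51.2 on array 2. For HS (ch+)/NS (−), the other 2 ratios were multiplied.

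Genes to be named were the 5 with the highest HS (−)/NS (−) ratio, the 5 with the lowest HS (ch+)/HS (−) ratio, the 5 with the highest HS (−) signal, members on lists of cardiac genes and the genes next to each limit. As 0 of the IDs had a name, 4 IDs are printed, and the gene lists, the markers other than Myh6, promoter sequences and motifs were not used here. Myh6 was paired with its ID by the paper. Genes closest to or furthest from NS (−), and those over 25000, were picked with the values in view.

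The alternatives were other background corrections, loess, normexp with an offset of 50 and loess, the deposited table, other signal minimums, a second limit of 0.5, the HS (−) reading of the other array, and 50 added to each signal of the printed IDs. Loess within blocks, centring over genes only and the exchange of both readings were added after the data had been seen. On simulated arrays of 20174 genes, 200 of 200 genes changed by 2 and −1 on the log2 scale were recovered, with 0 false ones. Both changes lay well past the limits of the selection, and changes close to a limit were not simulated. The simulation therefore checked the calculation only, and it cannot show how many of the genes selected from the real arrays are false. Loess and normexp were run with limma 3.58.1 in R 4.3.3, and all else with Python 3.11.15, numpy 2.4.6, pandas 2.3.3 and, for the plots, matplotlib 3.10.9.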

Additional observations from a re-analysis of the deposited data

How the results depend on the processing

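All 109 genes stayed higher in HS (−) than in NS (−) under the 7 other ways of normalization that were run, and 109 stayed lower with chaetocin, except 102 with each spot's own background subtracted (spot background) and 105 with normexp and loess. HS (ch+) stayed above NS (−) in 109 genes, except 106 in each of these settings. Of the 7, the deposited table held the main values within 2.7e-05, so its agreement was fixed in advance. The number of genes that met the limits was 178 without background subtraction, 290 without a signal minimum (more genes are tested), 55 with a signal of 100 in all 4 channels and 46 with a second limit of 0.5. It was 95 with spot background (74 of the 109 among them), 83 with normexp and loess (69), and between 80 and 127 in the other settings. The median HS (−)/NS (−) ratio was 3.25 with spot background and 2.54 with normexp and loess, the median HS (ch+)/HS (−) ratio 0.473 without background subtraction, and the median HS (ch+)/NS (−) ratio 1.71 without background subtraction and 1.52 with normexp and loess. The cause was not tested. The medians of all genes tested moved too in 2 of these settings, to 0.29 and −0.24 on the log2 scale without background subtraction and to −0.12 and 0.26 with spot background, for HS (−)/NS (−) and HS (ch+)/HS (−), and were 0.01 and 0.02 with normexp and loess. For ENSRNOG00000019183 the first ratio ranged from 10.1 to 106 over the alternatives and for ENSRNOG00000017130 from 2.43 to 46.1, while for ENSRNOG00000029719 it ranged from 20.1 to 31.7 and for ENSRNOG00000031230 from 19.1 to 39.7. Of the ratios of these 4 genes under the alternatives, those of the deposited table included, 32 moved by more than the spread of the HS (−) readings. The other 40 did not, and none changed direction. Leaving out a replicate and the promoter window were not run, as each comparison had 1 array and no gene had a promoter sequence by name. No paired analysis was possible because each group was 1 pool. Signal over background limits the ratios of the 9 genes with dim NS (−) spots, and those of genes with NS (−) signals just above that cut.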
